A study of Mus musculus with 8 samples.

Results

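The genes described here are 31 glycolysis, hypoxia and nutrient transport genes of this mouse regulatory T (Treg) cell series. They were chosen by name out of the 53465 gene identifiers in its files, with earlier results of these data known. They fall into 14 enzymes that turn glucose into lactate, 10 Slc transporters, and 7 regulators and others (Pfkfb3, Pdk1, Hif1a, Egln3, Bnip3, Tfrc and Myc). All 31 were found by symbol. RNA was sequenced from 8 libraries with 1 library per condition, so that no difference could be set against a spread between mice and no comparison was tested. The mice were 3 to 4 weeks old and are labelled C57BL/6, although by the methods the ΔR allele was made on a mixed background and then backcrossed. The cells came from spleen and lymph nodes.

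The series follows Brg1 (Smarca4 in the files), the ATPase of a chromatin remodelling complex. It asks what deleting this gene in Treg cells does and what reexpressing it in sick mice does. Every genotype carries R26CAG-FlpoER, a tamoxifen (TAM)-dependent recombinase driven by a ubiquitous promoter, and Cre is made from the Foxp3 locus on the X chromosome (Foxp3YFP-Cre). BrgF is a floxed allele. ΔR (deltaR) is a gene trap allele that marks cells with GFP and that the recombinase turns back to a working allele. The WT library is BrgF/+ Foxp3YFP-Cre/+, so its cells keep a single working Brg1 allele where Cre acts. The mosaic females are BrgF/ΔR, and give Brg1-sufficient cells (labelled Foxp3+/+) and Brg1-deleted cells (labelled Foxp3YFP-Cre). Untreated rKO1 mice are BrgF/deltaR Foxp3YFP-Cre/YFP-Cre. TAM-treated rKO1 mice of this genotype gave Brg1-deleted GFP+ cells, and Brg1-reexpressed GFP− cells labelled BrgF/+ Foxp3YFP-Cre/YFP-Cre, both isolated on day 7. Activated Treg (aTreg) cells, sorted as CD44hi CD62Llo, gave a library labelled Brg1-deleted, whose genotype is given as BrgF/F and whose values are headed as WT, and a library labelled Brg1-reexpressed (BrgF/+). By the methods of the study, Treg cells were sorted on the YFP of the Foxp3 allele, while Brg1-sufficient cells of mosaic females lack YFP. The 2 aTreg libraries were sequenced apart from the 6 total Treg libraries, and no level was compared between the experiments.

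Glycolysis splits glucose into pyruvate in the cytosol, and lactate dehydrogenase turns pyruvate into lactate, which leaves the cell through monocarboxylate transporters. In low oxygen, the transcription factor HIF-1α is no longer marked for decay by prolyl hydroxylases such as EGLN3. It then binds hypoxia response elements near many genes of glycolysis, and raises glucose uptake and lactate export. Activated T cells also switch on glycolysis and amino acid uptake in normal oxygen, under the control of Myc and of signals through mTOR.

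The promoters of 4 members are shown because they carry the hypoxia response element core ACGTG and belong to genes that lay about 2-fold or more higher in Brg1-reexpressed than in Brg1-deleted rKO1 cells. Each line is the 250 bases before a gene's start in RefSeq (GRCm38.p6), 5′ to 3′ on the gene's strand, with the cores in capitals on either strand (CACGT is the core read from the other strand).
Pgk1: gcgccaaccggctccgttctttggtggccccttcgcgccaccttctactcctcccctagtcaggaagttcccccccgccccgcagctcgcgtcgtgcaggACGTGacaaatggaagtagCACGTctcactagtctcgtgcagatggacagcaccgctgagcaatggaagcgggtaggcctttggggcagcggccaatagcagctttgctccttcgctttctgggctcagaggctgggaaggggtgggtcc
Ldha: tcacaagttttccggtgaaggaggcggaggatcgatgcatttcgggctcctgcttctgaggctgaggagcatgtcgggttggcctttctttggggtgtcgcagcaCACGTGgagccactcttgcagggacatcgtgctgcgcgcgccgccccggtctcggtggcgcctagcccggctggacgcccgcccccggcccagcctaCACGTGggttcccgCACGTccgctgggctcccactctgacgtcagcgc
Slc16a3: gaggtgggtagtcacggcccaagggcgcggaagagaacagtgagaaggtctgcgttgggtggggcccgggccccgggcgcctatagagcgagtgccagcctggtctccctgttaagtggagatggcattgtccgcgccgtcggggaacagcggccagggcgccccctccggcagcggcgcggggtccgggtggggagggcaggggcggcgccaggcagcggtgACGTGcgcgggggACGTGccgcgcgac
Egln3: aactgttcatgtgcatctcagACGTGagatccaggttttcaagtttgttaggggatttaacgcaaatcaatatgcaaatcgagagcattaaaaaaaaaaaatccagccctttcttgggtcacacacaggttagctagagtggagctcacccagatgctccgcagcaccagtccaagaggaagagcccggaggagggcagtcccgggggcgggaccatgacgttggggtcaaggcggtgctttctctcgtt
They lie at chrX:106186850-106187099 (plus strand), chr7:46845554-46845803 (plus), chr11:120948817-120949066 (plus) and chr12:54203875-54204124 (minus). The Ldha start used by RefSeq is 4329 bases inside the gene as GENCODE M21 draws it, and 14 of the 250 bases shown for Slc16a3 lie in an annotated exon. A RefSeq promoter was at hand for 26 of the 31 members, and 13 of these (50%) held ACGTG, namely 5 of 14 enzymes, 4 of 6 transporters and 4 of 6 regulators and others. Over the 20592 promoters of the same length, 17.3% held it. The members were chosen as glycolysis, hypoxia and transport genes, so the shares cannot be compared as for a blind choice. Among counted members not shown, the RefSeq starts of Slc3a2 and Hif1a lie 9472 and 6492 bases inside the gene of GENCODE M21. The E-box CACGTG, which contains the core and reads the same on both strands, was in 5 of the 26 members' promoters (19.2%) and in 6.42% of all promoters. Of the enzymes at least 2-fold higher in Brg1-reexpressed cells, ACGTG stood before Pgk1 and not before Tpi1, Eno1 or Pkm in this window. Pfkm, with 2 cores, was 1.96-fold lower in that comparison. The other members with a core lay above 0, Pfkfb3 and Slc16a1 by only 0.02 and 0.13 in log2. Of all 31 members, with or without a core, 25 lay above 0. Only ACGTG and CACGTG were searched, so other forms of the core may stand there. A match of letters does not show binding.

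Reads on genes numbered between 16324008 and 24093551 per library, so that 1 read is worth 0.0411 to 0.0602 CPM, the usual unit for reads scaled to library size. CPM here are scaled by the trimmed mean of M-values (TMM). Brackets after a fold or log2 value give exact 95% Clopper-Pearson limits for the read counts. They cover counting error only and say nothing of the spread between mice. A gene entered a comparison if one of its libraries held 5 CPM or more, and is called higher or lower from a 2-fold difference on. Smarca4, the targeted gene, stood at 87.8 CPM in WT, 77.0 in mosaic Brg1-sufficient, 47.1 in mosaic Brg1-deleted, 44.0 in untreated rKO1, 36.0 in GFP+ and 58.0 CPM in GFP− cells. Its order follows the labels in total Treg cells. In the aTreg libraries it went against them, at 71.2 CPM in the library labelled Brg1-deleted and 59.4 CPM in that labelled Brg1-reexpressed. Reads over the whole gene do not measure working Brg1. By the paper, the ΔR allele still makes a fusion with the first part of Brg1. The Brg1-deleted total Treg libraries kept 36.0 to 47.1 CPM. Cell cycle genes, given below, were higher by the labels in aTreg cells as in rKO1 mice. All 8 Treg identity genes were read in every library, but their levels differed. In untreated rKO1 against mosaic Brg1-sufficient cells, 1 was called higher and 3 lower. In untreated rKO1 cells against WT, and in GFP− against mosaic Brg1-sufficient cells, 2 were called in each direction. None was called in GFP+ against untreated rKO1 cells. Foxp3 was at 83.7 CPM in WT and 614 CPM in mosaic Brg1-sufficient cells. The summed level of 9 erythroid genes was 157 to 635 CPM in total Treg libraries, 1181 CPM in the aTreg library labelled Brg1-deleted and 22891 CPM in that labelled Brg1-reexpressed. Because these are bulk samples, fewer cells of a type and less RNA per cell cannot be told apart.

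By level per length, Ldha, which makes lactate from pyruvate, led the enzymes with a median of 468 CPM per kb over the 6 total Treg libraries. Eno1 (enolase) followed at 207, Aldoa (aldolase) at 171 and Pkm (pyruvate kinase) at 109 CPM per kb. Hk2, the inducible hexokinase, was lowest at 1.68 CPM per kb. Hk1, the constitutive hexokinase, exceeded Hk2 per length in every library. In total Treg cells it did so by 2.67 times (untreated rKO1) to 20 times (mosaic Brg1-deleted). In the aTreg libraries labelled Brg1-deleted and Brg1-reexpressed it did so by 69.5 and 114 times, with only 18 and 10 reads on Hk2. Among the phosphofructokinase genes, Pfkl was above Pfkm in all 8 libraries. Pfkp was below Pfkl in 7 libraries, at 0.517 to 0.999 times its level per length, and above it at 1.26 times in GFP− reexpressed cells.

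Slc2a1, the glucose transporter GLUT1, exceeded Slc2a3 (GLUT3) per length in all 8 libraries, by 1.65 to 3.29 times. Slc3a2, the heavy chain shared by several amino acid exchangers, was the highest transporter with a median of 56.4 CPM per kb in total Treg cells. Its partner Slc7a5 (LAT1), which carries leucine, lay 4.86 to 26.4 times below it. Slc16a1, the monocarboxylate transporter MCT1, exceeded Slc16a3 (MCT4, a lactate exporter) by 10 times per length in GFP+ cells and by 1.67 times in GFP− cells.

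The 14 enzymes together took 0.304% of the reads in untreated rKO1 cells, 0.419% in mosaic Brg1-deleted, 0.436% in GFP+, 0.472% in WT, 0.490% in mosaic Brg1-sufficient and 0.678% in GFP− reexpressed cells. These shares do not depend on TMM. By TMM-scaled CPM, 8 of the 14 enzymes had their highest level in GFP− cells, and 7 had their lowest level in untreated rKO1 cells. The 10 transporters took a nearly even share, between 0.0709% in GFP− and 0.0884% in GFP+ cells. By TMM-scaled CPM, 6 of them were highest in GFP− cells, the library with the lowest TMM factor (0.867). Of these, Slc16a3 led the next highest library 2.42-fold, and the others by 1.03-fold (Slc2a1) to 1.25-fold (Slc3a2). With total reads alone, Slc3a2 and Slc16a1 stood at −0.02 and −0.22 in log2 against GFP+ cells. The share of all genes highest in GFP− cells is not given.

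**Figure D1:**
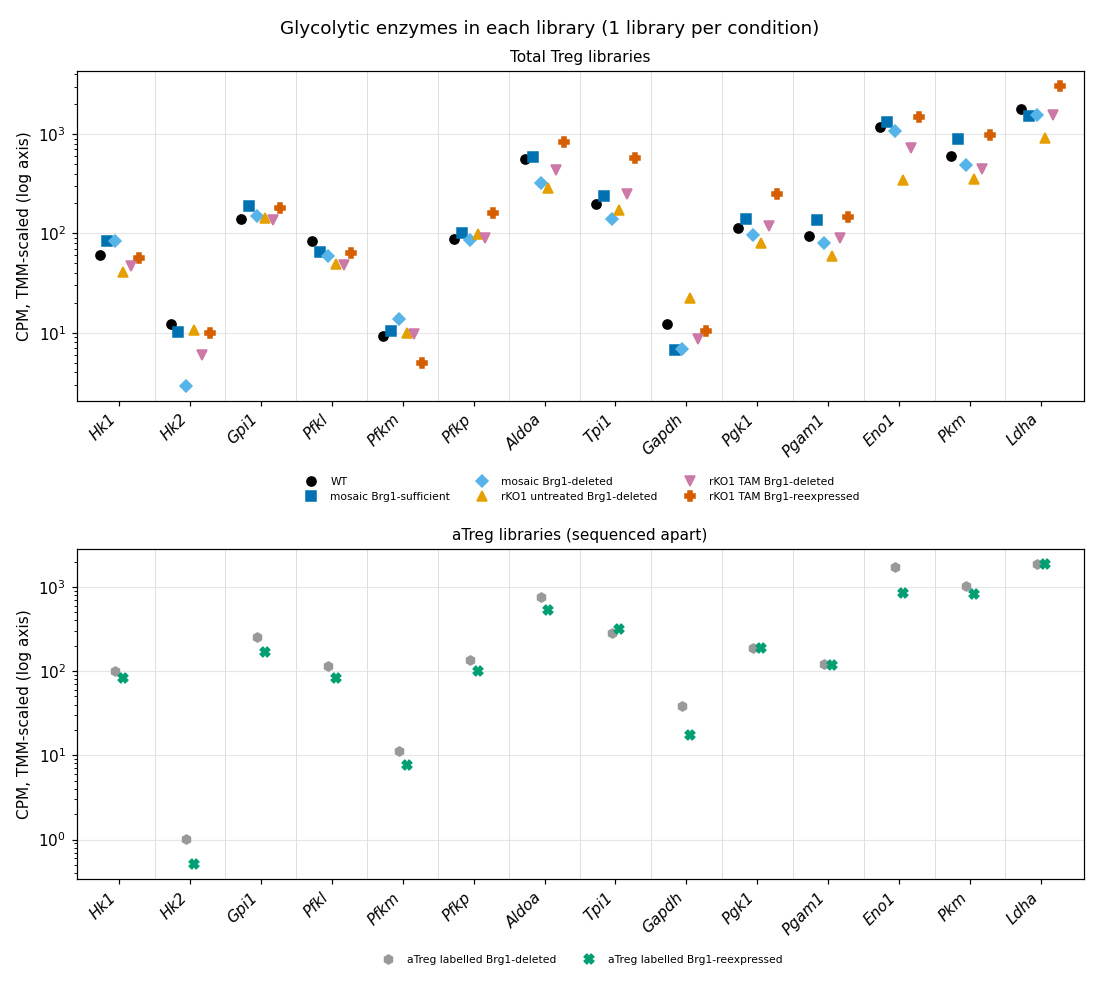
Levels of the 14 glycolytic enzymes (x axis, in pathway order) as TMM-scaled CPM on a log axis (y axis), 1 symbol per library, with the 6 total Treg libraries above and the 2 aTreg libraries below. GFP− reexpressed cells lie on top for 8 of the enzymes, from 836 CPM for Aldoa to 3057 CPM for Ldha among the most abundant, and untreated rKO1 cells lie lowest for 7.

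Gapdh must be read with care. Its transcript matches 73 other genes, mostly processed pseudogenes, at 95% identity or more over at least 40% of its length. The gene itself held 143 to 682 reads per library, and the copies held 68.6% to 96.0% of the reads of gene and copies together. Eno1 has 3 such copies, among them Eno1b, which held 6.45% to 30.2%. For Gpi1, Pgk1, Pgam1, Pkm, Ldha and Bnip3, copies held 0% to 3.93%. How the counting treated reads that map to several places is not given in the sources used here. Gpi1, Pkm, Pfkm and Bnip3 have 10.7% to 22.3% of their exon bases inside another gene, so that their reads may be partly those of the neighbour.

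**Figure D2:**
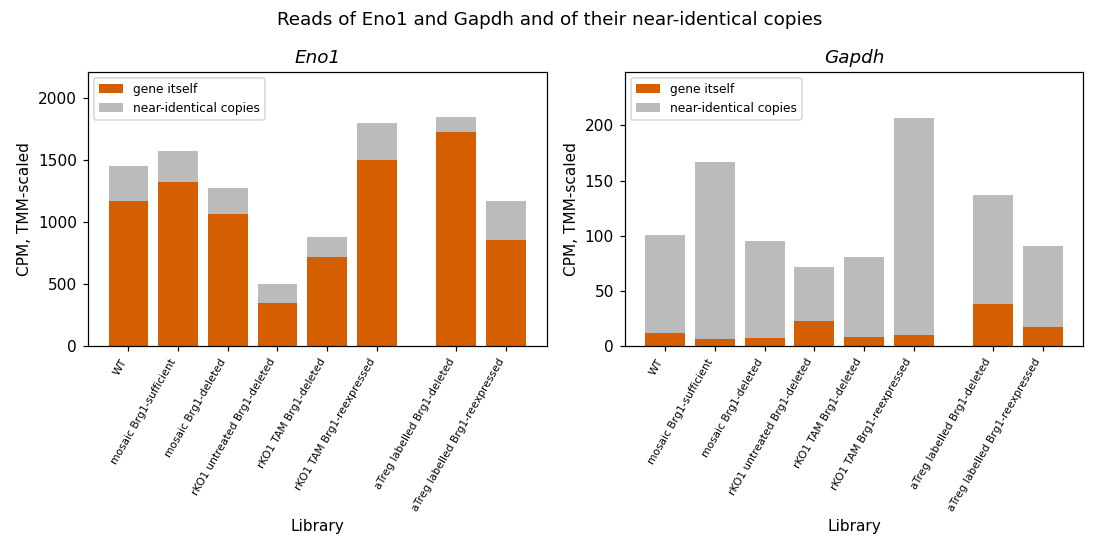
TMM-scaled CPM (y axis, from 0) of Eno1 (left) and Gapdh (right) in each library (x axis), with the gene itself in orange and its near-identical copies in grey on top. For Gapdh the copies exceed the gene in all 8 libraries, and for Eno1 they differ most between the aTreg libraries, at 119 and 309 CPM.

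The main question is what reexpressing Brg1 did in rKO1 mice. GFP− cells, compared with GFP+ cells of the same treated mice, had higher levels of most glycolytic enzymes, of the lactate exporter Slc16a3 and of Egln3, and a lower level of Myc. Of the 14 enzymes, 13 lay above 0 on the log2 scale, 4 were called higher (Tpi1, Pkm, Pgk1 and Eno1), and none was called lower. With its copies added, Gapdh was a further enzyme past 2-fold, at 80.4 and 207 CPM, higher by 1.36 in log2 (1.27 to 1.45). The enzymes' median was 0.78 in log2, a 1.71-fold difference, against 0.06 over all tested genes. Over the whole comparison, 7.07% of 10323 tested genes were called higher and 5.69% lower. Among all 31 members, 6 were called higher and 1 lower.

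In this comparison, Tpi1 (triosephosphate isomerase) had 251 CPM in GFP+ and 571 CPM in GFP− cells, a 2.28-fold difference (2.20 to 2.36). Its level in GFP− cells was 2.28 times that of the next highest library. Pkm stood at 442 and 985 CPM, 2.23-fold higher (2.17 to 2.29). Pgk1, phosphoglycerate kinase, which makes the first ATP of the pathway, stood at 119 and 248 CPM, 2.09-fold higher (1.99 to 2.21). Eno1 stood at 719 and 1496 CPM, 2.08-fold higher (2.04 to 2.12). With its 3 copies added, Eno1 was still higher, by 1.03 in log2 (1.0 to 1.06). Ldha stood just under the threshold, at 1544 and 3057 CPM, 1.98-fold higher (1.95 to 2.01). Aldoa differed 1.92-fold (1.87 to 1.97) and Pfkp 1.79-fold (1.69 to 1.91). Hk2 differed 1.64-fold (1.28 to 2.11), Pgam1 1.61-fold (1.51 to 1.71), Pfkl 1.32-fold (1.20 to 1.44), Hk1 1.22-fold (1.11 to 1.34) and Gpi1, the isomerase after hexokinase, 1.32-fold (1.26 to 1.40). Pfkm went the other way, from 9.81 to 5.0 CPM, 1.96-fold lower (1.51 to 2.57).

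The scale matters here. With total reads alone, the median of all tested genes moves to −0.29, a shift of −0.35, and the genome-wide calls turn from 730 higher and 587 lower to 372 higher and 1258 lower. The enzymes' median is then 0.43, and none of Tpi1 (0.84 in log2), Pkm (0.81), Pgk1 (0.72) and Eno1 (0.71) reaches 2-fold, while Hk1 (−0.06) and Gapdh (−0.07) change sign. A change of scale moves every gene alike, and the distance of the enzymes' median from that of all tested genes, 0.72, does not depend on it.

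Of the 10 transporters in the same comparison, 7 lay above 0 and Slc16a3 alone was called, with a group median of 0.23 that turns to −0.12 with total reads alone, where Slc3a2, Slc16a1 and Slc38a1 change sign. Slc16a3 had 2.83 CPM in GFP+ and 18.7 CPM in GFP− cells, 6.58-fold higher (4.91 to 9.03). Its levels in the other total Treg libraries were 4.03 in WT, 7.73 in mosaic Brg1-sufficient, 2.79 in mosaic Brg1-deleted and 2.87 CPM in untreated rKO1 cells. All 3 Brg1-deleted libraries were below all 3 libraries with Brg1, but WT and untreated rKO1 cells, with 67 and 55 reads, were within counting error of each other. The share of all genes that split the libraries in this way is not given. The glucose transporters differed less, Slc2a3 by 1.52-fold (1.35 to 1.71) and Slc2a1 by 1.31-fold (1.18 to 1.45). Amino acid transporters did not move as a set. Slc1a5 (ASCT2, a glutamine carrier) was 1.41-fold higher (1.31 to 1.52), Slc38a2 (SNAT2), another carrier of glutamine and other neutral amino acids, was 1.78-fold lower (1.69 to 1.87) and Slc7a5 was 1.44-fold lower (1.18 to 1.75). The directions of Slc2a3, Slc1a5, Slc38a2 and Slc7a5 held under every scaling tried, with total reads alone giving 0.25, 0.15, −1.18 and −0.87 in log2.

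Of the regulators and others, Egln3, whose product marks HIF proteins for decay and which is itself a HIF target, stood at 5.61 CPM in GFP+ and 17.2 CPM in GFP− cells, 3.05-fold higher (2.43 to 3.86). It was 30.7 CPM in mosaic Brg1-sufficient cells and 5.01 to 6.44 CPM in WT and the other Brg1-deleted libraries. Bnip3, a mitophagy receptor and HIF target, was 8.45 and 16.1 CPM, 1.90-fold higher (1.56 to 2.33). Hif1a itself stood at 143 and 233 CPM, 1.63-fold higher (1.55 to 1.71). Myc went the other way, from 115 to 54.8 CPM, 2.09-fold lower (1.93 to 2.26), and its level in GFP− cells was the lowest of the 6 libraries. Pdk1, the kinase that holds pyruvate dehydrogenase off and another HIF target, was 1.57-fold lower (1.35 to 1.84). Pfkfb3, which makes the activator of phosphofructokinase, was at 6.87 and 6.97 CPM. So the HIF target genes of this group did not share a direction.

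Other genes moved with this comparison. Of 15 cell cycle genes, 12 were called higher and none lower, with a median of 1.40, and their summed level was 2404 CPM in GFP− cells against 595 to 989 CPM in the other 5 libraries. Of 10 myeloid markers, 6 were tested and 5 of these called lower, and their summed level was 116 CPM in GFP+ and 51.3 CPM in GFP− cells. Markers of CD8 T or NK cells summed to 26.5 and 13.5 CPM, with Ncr1 at 6.65 and 0 CPM. Plasma cell markers summed to 210 and 264 CPM, with 1 of 4 tested called higher and 2 lower. Of 10 stress genes, 8 were tested, 3 were called lower and none higher. The part of cycling cells and of other cell types in the enzyme difference was not tested.

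**Figure D3:**
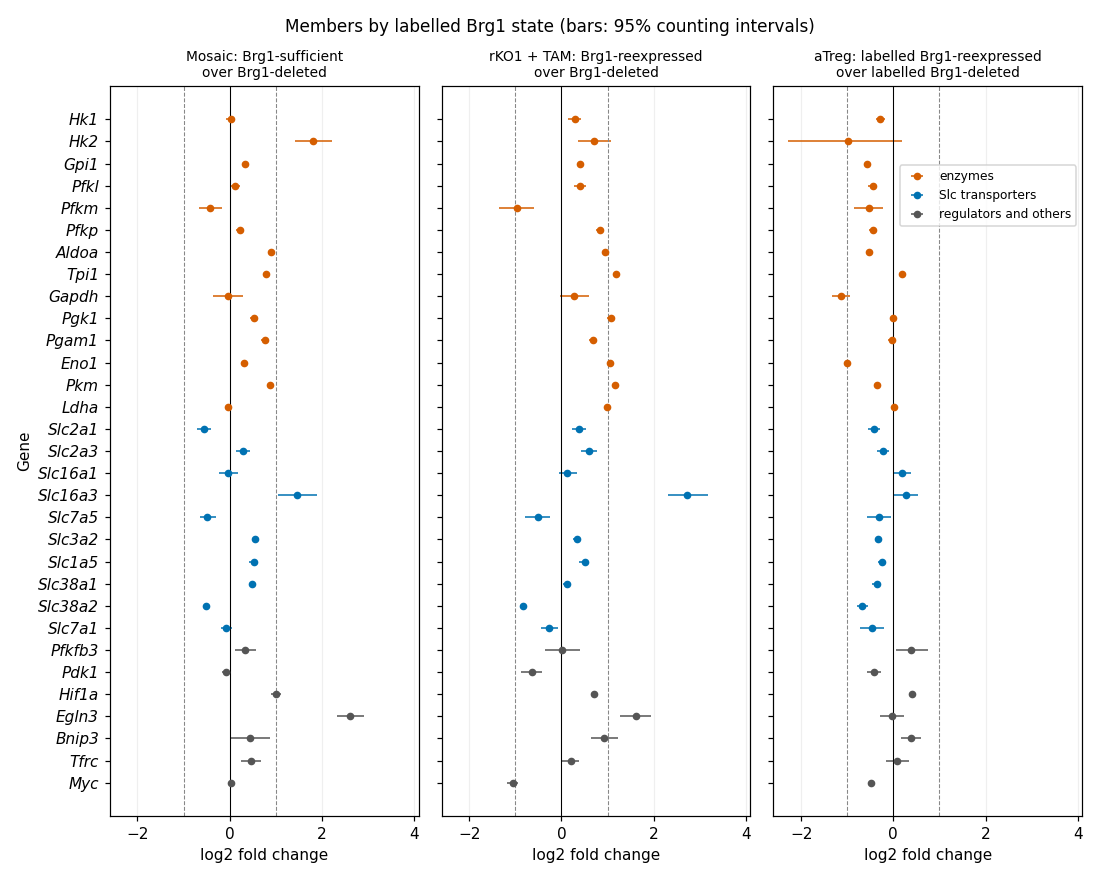
Log2 fold change (x axis) of each of the 31 members (y axis) in the mosaic, rKO1 and aTreg comparisons, by the labels of the libraries, with points for the fold and bars for the 95% counting interval. Dashed lines mark 2-fold. In the middle panel 13 of 14 enzymes (orange) lie right of 0, and in the aTreg panel 12 of 14 lie left of it.

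In healthy mosaic females, the comparison of Brg1-sufficient with Brg1-deleted cells shows the same gene groups without inflammation. Its cells also differ in the Foxp3 allele and the YFP gate, which cannot be told apart from Brg1 here. Most enzymes were somewhat higher in Brg1-sufficient cells, and Hk2, Slc16a3, Hif1a and Egln3 were called. Of the 14 enzymes, 11 lay above 0 with a median of 0.33, against 0.03 over all tested genes. Over the comparison 4.05% of 10073 tested genes were called higher and 2.07% lower, and 4 of 31 members were called higher and none lower. Egln3 had the largest difference, with 5.01 CPM in Brg1-deleted and 30.7 CPM in Brg1-sufficient cells, 6.12-fold (5.04 to 7.50). Hk2 stood at 2.92 and 10.2 CPM, 3.48-fold higher (2.66 to 4.63), and Slc16a3 at 2.79 and 7.73 CPM, 2.76-fold higher (2.07 to 3.73). Hif1a stood at 44.0 and 88.4 CPM, 2.01-fold higher (1.86 to 2.17), which falls to 0.87 in log2 with total reads alone. Aldoa differed 1.86-fold (1.81 to 1.91), Pkm 1.83-fold (1.78 to 1.87) and Tpi1 1.72-fold (1.64 to 1.79). Ldha did not share this, at 1556 and 1525 CPM. Pfkm was 1.34-fold lower (1.12 to 1.59) in Brg1-sufficient cells. Among the transporters, Slc3a2 was 1.46-fold higher (1.39 to 1.53), while Slc2a1 was 1.47-fold (1.33 to 1.62) and Slc38a2 1.42-fold (1.36 to 1.48) lower. Pdk1 stood at 84.2 and 79.9 CPM and Myc at 198 and 202 CPM. Gapdh alone stood at 6.94 and 6.74 CPM, but with its copies at 95.3 and 167 CPM, higher by 0.81 in log2 (0.73 to 0.89). Total reads alone move the median of all tested genes by −0.13 and give 306 genes higher and 308 lower in place of 408 and 209.

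The mosaic and the rKO1 comparison share no library. In both of them 21 of 31 members (67.7%) lay above 0, among them 11 of the 14 enzymes (78.6%), against 36.4% of the 9634 genes tested in both. The members were chosen with earlier results of these data known, so the shares cannot be compared as for a blind choice. Under another scaling, Hk1 fell to −0.11 (mosaic) and −0.06 (rKO1) and Pfkl to −0.01 (mosaic). In the rKO1 comparison Slc3a2 (−0.02), Slc38a1 (−0.24), Pfkfb3 (−0.33) and Tfrc (−0.15) also fell below 0. Slc16a3 and Egln3 were called higher in both, and no member was called lower in both. Of the 9634 genes tested in both, 151 were called higher in both and 56 lower in both.

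Untreated rKO1 cells, from sick mice, were compared with both Brg1-sufficient controls. Against WT, 10 of 14 enzymes lay below 0 with a median of −0.55, while the transporters' median was 0.02 over 9 tested. Eno1 was the only member called, with 7.10% of 10471 tested genes called lower and 8.60% higher. It stood at 348 CPM against 1167 CPM in WT, 3.36-fold lower (3.26 to 3.45). With its copies added, the difference was −1.54 in log2 (−1.58 to −1.51). Aldoa was 1.96-fold lower (1.89 to 2.03) and Ldha 1.95-fold lower (1.92 to 1.99), from 1801 to 921 CPM. Gapdh appeared 1.83-fold higher (1.54 to 2.17), but with its copies added it was −0.50 in log2 (−0.60 to −0.39). Pfkp was 1.14-fold higher (1.06 to 1.22). Of the transporters, Slc38a1 was 1.25-fold (1.18 to 1.33) and Slc7a1 1.16-fold (1.01 to 1.32) higher, and Slc7a5 was 1.35-fold lower (1.12 to 1.62). Slc38a2 was 1.75-fold lower (1.68 to 1.83), Bnip3 1.65-fold lower (1.30 to 2.12) and Pfkfb3 1.45-fold lower (1.13 to 1.86), while Hif1a was 1.54-fold (1.44 to 1.64) and Pdk1 1.11-fold (1.02 to 1.21) higher. The summed level of the stress genes was 5250 CPM in WT and 1145 CPM in untreated rKO1 cells, and its part was not tested. Total reads alone shift the median of all tested genes by 0.30 and give 1658 higher and 467 lower calls in place of 900 and 743. The enzymes' median then becomes −0.26 and that of the transporters 0.31.

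Against mosaic Brg1-sufficient cells, 12 of 14 enzymes lay below 0 with a median of −0.60, and 5 were called lower, namely Eno1, Pkm, Pgam1, Hk1 and Aldoa. Background calls were 9.12% lower and 8.20% higher of 10457 tested genes, and 9 of 31 members were called lower and 1 higher. Eno1 was 3.81-fold lower (3.71 to 3.91) and Pkm 2.56-fold lower (2.49 to 2.63). Pgam1 (phosphoglycerate mutase) was 2.30-fold lower (2.15 to 2.47), Hk1 2.09-fold (1.92 to 2.28) and Aldoa 2.07-fold (2.0 to 2.13). The only member called higher was Gapdh, 3.33-fold (2.75 to 4.05), and it turned to −1.22 in log2 (−1.31 to −1.13) once its copies were added. Hk2, second among the enzymes, stood at 10.6 against 10.2 CPM. Slc16a3 was 2.69-fold lower (1.97 to 3.72), Slc7a5 1.82-fold lower (1.55 to 2.15), and Slc2a1 1.16-fold higher (1.04 to 1.29). Slc38a2 was at 171 and 163 CPM and Tfrc, the transferrin receptor, at 22.7 and 18.6 CPM. Egln3 was 5.88-fold lower (4.76 to 7.34), Pfkfb3 2.54-fold (2.05 to 3.16) and Myc 2.05-fold (1.94 to 2.17), while Hif1a was 1.62-fold higher (1.53 to 1.72). Total reads alone shift all tested genes by 0.35, give 1636 higher and 459 lower calls in place of 857 and 954, leave 4 members called lower and turn the transporters' median from −0.19 to 0.16. Of the markers, 3 of 4 tested myeloid genes (median 2.60), 2 of 4 plasma cell genes and 2 of 4 erythroid genes were called higher, and both tested B cell genes and 1 erythroid gene lower. Their part was not tested. Both comparisons share the untreated rKO1 library.

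How far GFP− reexpressed cells differ from Brg1-sufficient cells of mice without this disease was the next comparison. Against WT they had 9 of 14 enzymes above 0 with a median of 0.48, and 8 of 10 transporters with a median of 0.39, with 9.71% of 10314 tested genes called higher and 7.43% lower. Among the 31 members, 5 were called higher and 3 lower. Tpi1 was 2.90-fold higher (2.79 to 3.02), from 197 to 571 CPM, and Pgk1 2.20-fold higher (2.08 to 2.32). With its copies added, Gapdh was also past 2-fold, higher by 1.04 in log2 (0.95 to 1.12). Ldha was 1.70-fold (1.67 to 1.72) and Eno1 1.28-fold (1.26 to 1.31) higher. Pfkm was 1.86-fold (1.42 to 2.46) and Pfkl 1.32-fold (1.22 to 1.43) lower. Slc16a3 was 4.63-fold higher (3.55 to 6.13), Slc16a1 1.42-fold higher (1.22 to 1.65) and Slc38a2 2.14-fold (2.03 to 2.24) and Slc7a5 1.51-fold (1.24 to 1.84) lower. Egln3 was 2.66-fold (2.13 to 3.36) and Hif1a 2.5-fold (2.35 to 2.65) higher. Pdk1 was lower by 3.54-fold (3.08 to 4.08), at 15.4 against 54.4 CPM, and Myc by 2.27-fold (2.10 to 2.46). All 8 tested stress genes were called lower (median −1.80), as were 3 of 4 tested myeloid genes (median −1.25) and both tested B cell genes, and their part was not tested.

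Against mosaic Brg1-sufficient cells the same GFP− library had an enzyme median of only 0.16, and 10.8% of 10333 tested genes were called higher and 10.9% lower. Here 5 members were called in each direction. Tpi1 was 2.40-fold (2.32 to 2.48) and Ldha 2.0-fold (1.98 to 2.03) higher, and Pfkm was 2.05-fold (1.59 to 2.67) and Hk1 1.49-fold (1.37 to 1.61) lower. Pkm and Eno1, however, differed by only 1.10-fold (1.08 to 1.13) and 1.13-fold (1.11 to 1.15). Slc16a3 was 2.42-fold higher (2.0 to 2.94), Slc2a1 1.51-fold higher (1.36 to 1.68), and Slc7a5 2.04-fold (1.71 to 2.44) and the cationic amino acid carrier Slc7a1 1.89-fold (1.69 to 2.13) lower. Bnip3 was 3.07-fold (2.46 to 3.87) and Hif1a 2.64-fold (2.5 to 2.79) higher. Pdk1 was 5.20-fold (4.56 to 5.95), Myc 3.68-fold (3.43 to 3.96) and Pfkfb3 2.22-fold (1.80 to 2.77) lower. Of the 15 cell cycle genes, 13 were called higher in each of these 2 comparisons, with medians of 1.52 and 2.35. With total reads alone, the split of genome-wide calls turns from 1002 higher and 766 lower to 788 and 935 against WT.

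**Figure D4:**
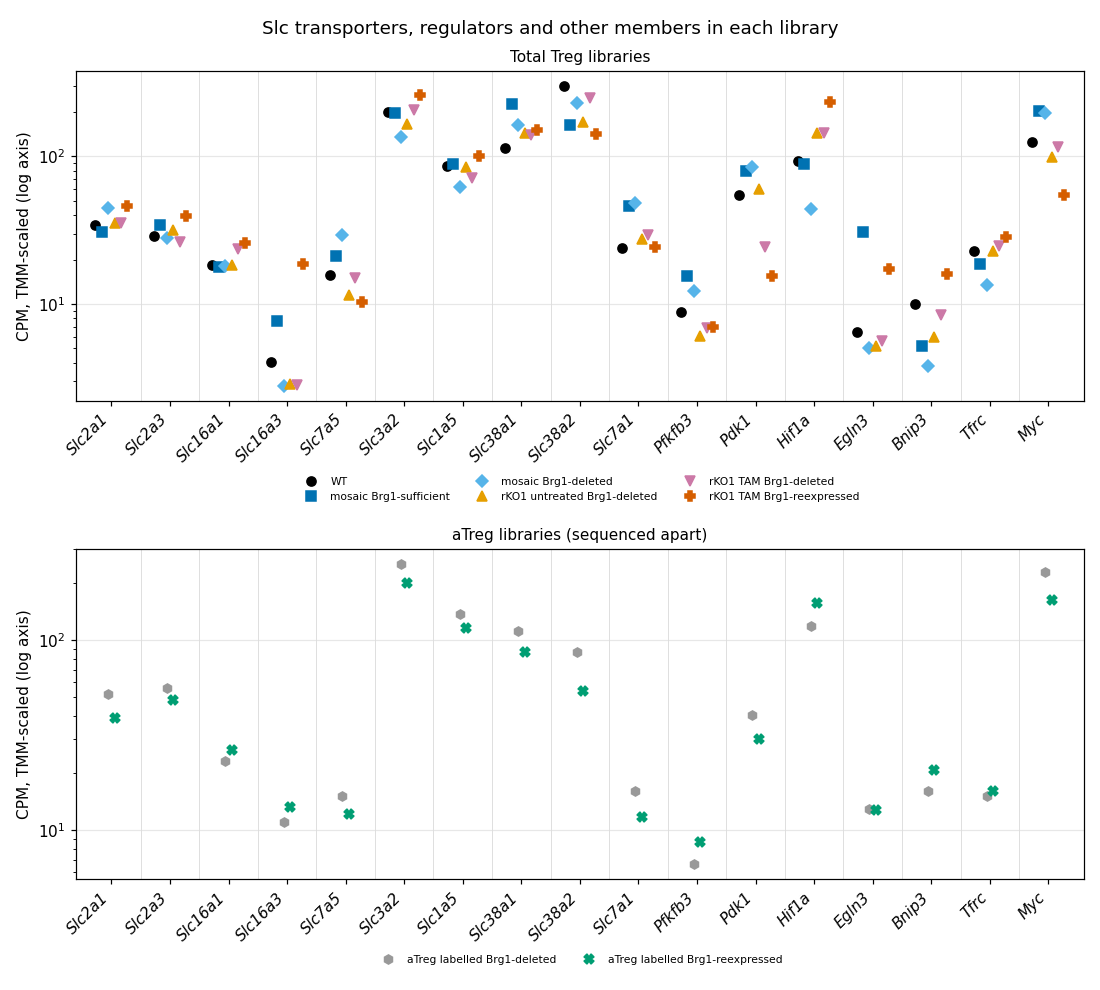
Levels of the 10 Slc transporters and the 7 regulators and others (x axis) as TMM-scaled CPM on a log axis (y axis), 1 symbol per library, with total Treg libraries above and aTreg libraries below. Slc16a3 lies highest in GFP− cells at 18.7 CPM, Egln3 in mosaic Brg1-sufficient cells at 30.7 CPM, and Pdk1 and Myc lie lowest in GFP− cells at 15.4 and 54.8 CPM.

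The controls themselves differed. Mosaic Brg1-sufficient cells against WT, both with Brg1 and without the disease, had an enzyme median of 0.20 and a transporter median of 0.15, and 5.16% of 10130 tested genes were called higher and 4.21% lower. Egln3 was the only member called, 4.77-fold higher (3.88 to 5.91) at 30.7 against 6.44 CPM. Its high level in mosaic Brg1-sufficient cells was therefore not shared by the other control. Slc38a1 (SNAT1) was 1.98-fold (1.88 to 2.09), Slc7a1 1.93-fold (1.72 to 2.18), Slc16a3 1.91-fold (1.43 to 2.59), Pfkfb3 1.75-fold (1.44 to 2.14) and Myc 1.62-fold (1.54 to 1.71) higher. Bnip3 was 1.90-fold (1.48 to 2.44), Slc38a2 1.85-fold (1.77 to 1.93) and Tfrc 1.22-fold (1.06 to 1.41) lower. Slc2a1 was 1.13-fold lower (1.01 to 1.26). Pkm was 1.48-fold (1.45 to 1.52) and Pgam1 1.45-fold (1.37 to 1.55) higher, and Pfkl was 1.30-fold (1.21 to 1.40) lower. Gapdh, 1.82-fold lower (1.46 to 2.27), turned to 0.73 in log2 (0.64 to 0.81) with its copies added. The stress genes' summed level was 1100 CPM in mosaic Brg1-sufficient and 5250 CPM in WT cells, and all 4 tested myeloid genes were called lower (median −1.93), and their part was not tested. The 2 controls also differ in the Foxp3 allele and the YFP gate, which cannot be told apart from any other difference between them.

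Brg1-deleted cells were compared across hosts and between mice with and without TAM. GFP+ cells of treated mice against untreated rKO1 cells, both Brg1-deleted, had an enzyme median of 0.27, and 2.15% of 10303 tested genes were called higher and 2.26% lower, the fewest of the total Treg comparisons except for the lower calls among mosaic cells. Eno1 was 2.07-fold higher (2.01 to 2.13), but by 0.82 in log2 (0.78 to 0.86) with its copies added. Ldha was 1.68-fold higher (1.64 to 1.71). Gapdh was 2.59-fold lower (2.15 to 3.13) and turned to 0.17 in log2 (0.06 to 0.28) with its copies. Hk2 was 1.77-fold lower (1.39 to 2.25). Slc38a2 was 1.46-fold (1.39 to 1.52) and Slc7a5 1.28-fold (1.07 to 1.54) higher, while Slc2a3 was 1.21-fold (1.08 to 1.37) and Slc1a5 1.18-fold (1.10 to 1.27) lower. Pdk1 was 2.49-fold lower (2.23 to 2.79), from 60.3 to 24.2 CPM. Bnip3 was 1.41-fold (1.10 to 1.81) and Myc 1.16-fold (1.09 to 1.24) higher, and Slc16a3 stood at 2.87 and 2.83 CPM and Hif1a at 143 CPM in both. Of 8 tested stress genes, 5 were called higher, and their part was not tested. Total reads alone give 192 genes higher and 355 lower in place of 222 and 233.

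GFP+ cells against mosaic Brg1-deleted cells had enzyme and transporter medians of 0.02 and −0.11, with 7.33% of 10308 tested genes called higher and 6.04% lower. Hif1a was 3.26-fold higher (3.03 to 3.50), 143 against 44.0 CPM, and Bnip3 2.21-fold higher (1.70 to 2.89). Pdk1 was 3.48-fold (3.14 to 3.86), Slc7a5 1.97-fold (1.71 to 2.28), Pfkfb3 1.78-fold (1.44 to 2.21) and Slc7a1 1.66-fold (1.5 to 1.84) lower. Hk2 was 2.05-fold (1.51 to 2.81) and Tpi1 1.81-fold (1.73 to 1.89) higher, while Hk1 was 1.79-fold (1.65 to 1.94) and Eno1 1.48-fold (1.45 to 1.51) lower. Slc3a2 was 1.53-fold (1.46 to 1.60) and Slc16a1 1.31-fold (1.15 to 1.5) higher. Across the 6 libraries, Hif1a was at 143, 143 and 233 CPM in the 3 rKO1 libraries. It was at 44.0 to 93.4 CPM in the 3 from healthy hosts, without overlap. The GFP+ and GFP− libraries came from the same treated mice, and the share of all genes that split the libraries alike is not given. Between GFP+ and mosaic Brg1-deleted cells, 5 of 6 tested myeloid genes (median 3.04), 6 of 8 stress genes (median 2.96), 8 of 15 cell cycle genes (median 1.07) and 3 of 4 erythroid genes were called higher, and both tested B cell genes lower. Their part was not tested. Total reads alone shift all tested genes by 0.13 and give 952 higher and 461 lower calls in place of 756 and 623.

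**Figure D5:**
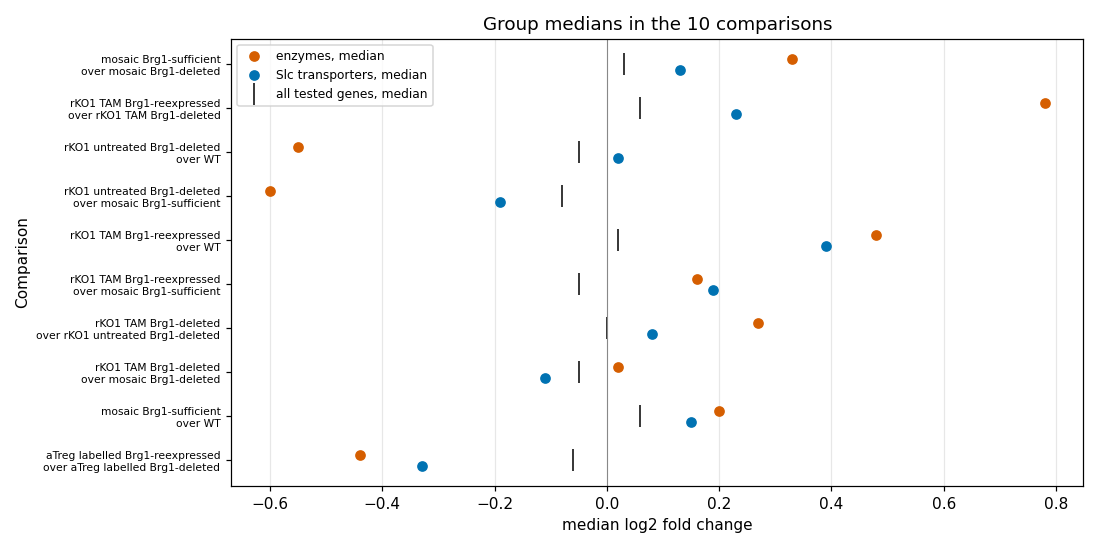
Median log2 fold change (x axis) of the enzymes (orange) and of the Slc transporters (blue) in each of the 10 comparisons (y axis), with a black bar for the median of all tested genes. The enzymes reach 0.78 with reexpression in rKO1 mice and −0.44 in the aTreg comparison, while the bars stay between −0.08 and 0.06.

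In aTreg cells most enzymes and transporters were lower in the library labelled Brg1-reexpressed. Every direction here follows the labels, which Smarca4 went against, and each sign turns if the labels are exchanged. The library labelled Brg1-reexpressed, against that labelled Brg1-deleted, had 11 of 13 tested enzymes below 0 with a median of −0.44, and 8 of 10 transporters below 0 with a median of −0.33. Over all tested genes the median was −0.06, and 4.40% of 10035 were called higher and 2.03% lower. No member was called higher, and 2 were called lower, Gapdh and Eno1. Eno1 fell from 1721 to 857 CPM, 2.01-fold (1.97 to 2.05). Its copies went from 119 to 309 CPM, and gene and copies together differed by −0.66 in log2 (−0.68 to −0.63), under 2-fold. Gapdh was 2.20-fold lower (1.93 to 2.51), and with its copies −0.59 in log2 (−0.68 to −0.50). No member was then called. Gpi1 was 1.48-fold lower (1.42 to 1.55), Aldoa 1.44-fold lower (1.40 to 1.47), and Pkm 1.27-fold lower (1.24 to 1.30). Tpi1 was 1.13-fold higher (1.09 to 1.17), and Ldha and Pgk1 were close to 0, at 1849 and 1862 CPM and at 186 CPM in both. Hk2 had only 18 and 10 reads and was not tested.

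Among the transporters of aTreg cells, Slc38a2 was 1.60-fold (1.48 to 1.73), Slc7a1 1.37-fold (1.15 to 1.64) and Slc2a1 1.34-fold (1.21 to 1.47) lower. Slc16a3 was 1.20-fold (0.995 to 1.46) and Slc16a1 1.14-fold (1.0 to 1.30) higher. Myc was 1.40-fold lower (1.34 to 1.47) and Pdk1 1.34-fold lower (1.20 to 1.49), as in the rKO1 comparison, and Hif1a was 1.33-fold (1.25 to 1.40) and Pfkfb3 1.31-fold (1.03 to 1.68) higher. Egln3 was at 12.9 and 12.7 CPM. All 8 tested erythroid markers were called higher in the library labelled Brg1-reexpressed, with a median of 4.20, and haemoglobin genes Hba-a1 and Hbb-bs reached 8486 and 10279 CPM. Bpgm, which makes the haemoglobin ligand 2,3-bisphosphoglycerate, rose from 51.2 to 333 CPM, and the iron transporters Slc25a37 and Slc40a1 from 7.06 to 21.9 and from 14.1 to 46.5 CPM. All 14 tested cell cycle genes lay above 0, with 3 called higher and a median of 0.58. The part of red cells and of cycling cells in the members' differences was not tested.

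Further genes of the pathways came from 5 lists. Of 30 other glycolysis genes, 16 were tested in the comparison of GFP− with GFP+ cells, with 1 called higher and 4 lower and a median of 0.18. Ldhb, the lactate dehydrogenase subunit that favours the step back to pyruvate, stood at 29.2 and 9.17 CPM, lower by 1.67 in log2, opposite to Ldha. It was also lower in untreated rKO1 cells than in WT, by 2.87 in log2, and in aTreg cells by 1.86. Eno2 was lower by 1.45, and Aldoc was higher by 1.74 with reexpression and by 1.85 in mosaic Brg1-sufficient cells. Eno3 and Adpgk, the other genes called lower, are named after their values were seen.

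Of 26 other hypoxia genes, 20 were tested with reexpression, 3 were called higher and 1 lower, and the median was −0.01. Ndrg1 stood at 10.5 and 29.4 CPM, Higd1a (named after its values were seen) at 147 and 317 CPM, while Anln, which is also a cytokinesis gene, was higher by 1.62 and Car12, a carbonic anhydrase, lower by 1.28 in log2. None of the 18 tested in the mosaic comparison, and none of the 18 tested in aTreg cells, was called. Epas1, which encodes HIF-2α, was at 0.452 to 0.963 CPM in the 3 libraries from healthy hosts. It was at 6.16 to 8.61 CPM in the 3 rKO1 libraries, without overlap. As for Hif1a, the share of all genes that split the libraries alike is not given. The median of all tested genes was 0.06 with reexpression, 0.03 in the mosaic comparison and −0.06 in aTreg cells, beside −0.01, −0.06 and 0.13 for the other hypoxia genes.

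Of 28 other nutrient transporters, 15 were tested with reexpression and none was called, with a median of −0.03. Of 17 genes of the amino acid response under ATF4, 14 were tested and none called, with a median of 0.48 in this comparison and −0.34 in untreated rKO1 cells against WT. Asns (asparagine synthetase) was called in the latter, at 13.4 against 4.33 CPM. Of 16 Myc partners and targets, 14 were tested with reexpression, and 1 was called in each direction. Mxd3, a Myc antagonist, was higher by 1.48, and Mnt, another, was lower by 1.01, with a list median of −0.27 beside the lower Myc.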

How the data were processed

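RNA from 8 sorted mouse Treg libraries was profiled by SMART-Seq v4 and paired-end Illumina sequencing. The authors deposited FPKM (fragments per kb of exon, scaled by a library total) per gene, 1 table per library. The submitters' processing notes name HISAT2 2.0, StringTie 1.3.3b, featureCounts 1.5.0-p3 and mm10, without their roles. Scaling by length and total hides depth, so reads were recovered from the deposited FPKM with merged exon lengths of GENCODE M21 and a constant per library. Values came out whole (within 0.02) in every library for 93.4% of 26020 total Treg genes and 100% of 21242 aTreg genes. For Slc38a1, Slc38a2, Pfkm and Pgam1 they did not in total Treg cells. Their reads, levels and bracketed limits there, and whether they reach 5 CPM, are therefore approximate. Their folds are not affected. Of the 53465 identifiers, 105 had no length.

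The design had assumed counts, as the study's methods use TMM, a minimum of 5 CPM in either library and a 2-fold difference. These were kept, with TMM written in Python 3.11.15 (NumPy 2.4.6, SciPy 1.17.1, pandas 2.3.3) over each experiment's libraries, a prior of 0.125 reads, and no p-value, since each condition has 1 library. The steps were tested on simulated data. Conditions follow the sample titles. Copies were found with BLAST 2.17.0. In each group, every called member and the 2 largest rises and falls above 5 CPM were named. Members and lists were chosen with earlier results of these data known. Alternatives changed the scaling, filter, threshold, prior, copies and overlapping genes. Depth limits low genes such as Hk2 in aTreg cells.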

Additional observations from a re-analysis of the deposited data

Results flagged for a closer look

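By the labels of the libraries, 7 results went in opposite directions in the aTreg and in the total Treg comparisons. They were picked for their opposite signs. Exchanging the aTreg labels, which Smarca4 went against, would therefore bring each of them to the direction in total Treg cells by construction. Other results ran the same way in both by the labels. Of 30 members tested in the rKO1 and the aTreg comparison, 8 (26.7%) lay above 0 in both and 6 below 0 in both. Of the 9533 genes tested in both, 2965 (31.1%) lay above 0 in both and 3027 below 0 in both. All 15 tested cell cycle genes in rKO1 mice and all 14 in aTreg cells lay above 0. An exchange would make these opposite. With 1 library per condition, none of these differences was tested. The enzymes' median log2 fold change was 0.78 in rKO1 mice and −0.44 in aTreg cells, a difference of 1.22, and against the mosaic value of 0.33 the difference was 0.77. For the Slc transporters the differences were 0.56 (rKO1) and 0.46 (mosaic). Eno1 differed by 2.07 between the rKO1 and the aTreg comparison and by 1.32 between the mosaic and the aTreg comparison, and with its copies added its aTreg value was −0.66 in place of −1.01. Pkm was higher with reexpression in total Treg cells and lower in aTreg cells, a difference of 1.51. In the aTreg pair, Smarca4 was at 71.2 CPM in the library labelled Brg1-deleted and 59.4 CPM in the other, and erythroid genes summed to 22891 CPM in the library labelled Brg1-reexpressed, and the part of either was not tested.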

How the results depend on the processing

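With 1 library per condition, no replicate could be left out, and depth limits only the lowest members. No paired analysis was possible because each comparison has 1 library a side and thus a single pair. The mosaic and the rKO1 pair come from different hosts and were set side by side, not pooled. For each comparison, 4 values were recomputed under 11 settings, namely the medians of the enzymes and of the transporters and the members called higher and lower. TMM over the compared libraries only, a minimum of 1 CPM, no minimum and a prior of 1 read moved none of them by more than the counting error or 1.5 times. Comparisons are named by the first and second library, and the cause of each move was not tested beyond what the setting itself changes.

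With total reads alone, the enzymes' median became 0.19 for mosaic Brg1-sufficient over deleted, 0.43 for GFP− over GFP+, −0.26 for untreated over WT, −0.25 for untreated over mosaic Brg1-sufficient, 0.34 for GFP− over WT, 0.07 for GFP− over mosaic Brg1-sufficient and 0.15 for GFP+ over mosaic Brg1-deleted. The transporters' median became −0.12 for GFP− over GFP+, 0.31 for untreated over WT, 0.16 for untreated over mosaic Brg1-sufficient and 0.25 for GFP− over WT. Members called higher and lower became 2 and 4 for GFP− over GFP+, and 2 and 4 for untreated over mosaic Brg1-sufficient, while 1 was called higher for untreated over WT and 0 for GFP+ over untreated.

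With the median of ratios, 2 members were called lower for untreated over WT, 3 for GFP− over mosaic Brg1-sufficient and 1 in aTreg cells. With the FPKM as deposited, the enzymes' median was −0.51 for untreated over mosaic Brg1-sufficient, 0.12 for GFP+ over mosaic Brg1-deleted and 0.10 for mosaic Brg1-sufficient over WT, and 3 members were called lower for GFP− over mosaic Brg1-sufficient. Without members that overlap another gene, the enzymes' median was −0.73 for untreated over mosaic Brg1-sufficient, 0.57 for GFP− over WT, 0.50 for GFP− over mosaic Brg1-sufficient, 0.54 for GFP+ over untreated and 0.17 for GFP+ over mosaic Brg1-deleted.

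At 1.5-fold, members called higher numbered 8 for mosaic Brg1-sufficient over deleted, 14 for GFP− over GFP+, 2 for untreated over WT, 2 for untreated over mosaic Brg1-sufficient, 10 for GFP− over WT, 10 for GFP− over mosaic Brg1-sufficient, 4 for GFP+ over untreated, 6 for GFP+ over mosaic Brg1-deleted and 6 for mosaic Brg1-sufficient over WT. Members called lower numbered 4 for GFP− over GFP+, 9 for untreated over WT, 14 for untreated over mosaic Brg1-sufficient, 5 for GFP− over WT, 6 for GFP+ over mosaic Brg1-deleted and 3 for mosaic Brg1-sufficient over WT.

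With the named copies added, 0 members were called higher for GFP+ over untreated and 1 lower in aTreg cells. Adding all matching copies was chosen after seeing the data. Gapdh then turned to −1.22 in log2 for untreated over mosaic Brg1-sufficient and to 0.17 for GFP+ over untreated. The enzymes' median became 0.43 for mosaic Brg1-sufficient over deleted, −0.77 for untreated over mosaic Brg1-sufficient, 0.62 for GFP− over WT and −0.07 for GFP+ over mosaic Brg1-deleted. Members called higher fell to 0 for untreated over mosaic Brg1-sufficient and for GFP+ over untreated, and members called lower to 1 for GFP+ over untreated and 0 in aTreg cells, while Gapdh raised those called higher to 7 for GFP− over GFP+ and 6 for GFP− over WT.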
